A study of Mus musculus with 18 samples.

Results

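The genes described here encode the nuclear parts of the mitochondrial respiratory chain and of ATP synthase. They were taken by name from the tables of the series: symbols that begin with Nduf, Uqcr, Atp5 or Cox followed by a digit, and Sdha to Sdhd, under older or current names and without pseudogenes. Of 8202 genes in the 3 tables, 94 were counted under this rule, with Emc8, Dmac2 and Atpif1 kept apart. Of the 94 genes, 89 were measured at E2.5, 92 at E3.75, 94 at E4.5 and 88 at all stages. They comprise 35 subunits of complex I, 4 of complex II, 8 of complex III, 11 of complex IV and 16 of complex V, so 74 subunits. The other 20 are 8 assembly factors of complex I, 8 of complex IV, the supercomplex factor Cox7a2l and 3 second copies of subunit genes (Cox6c2, Ndufa11b and Ndufs6b). Sdhd was measured only at E4.5, Cox7c was not analysed here at E3.75, and Atp5l, Ndufa12, Ndufab1 and Ndufa11b were not analysed here at E2.5. Further genes of the same name pattern, 14 in all and among them Atp5g2, Cox4i2, Cox6a2 and Cox7a1, were not analysed here.

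Embryos of the CD1 mouse strain were homozygous null for Oct4 (gene Pou5f1, Oct4 -/-) or wild type (Oct4 +/+), and each genotype was sampled on embryonic day 2.5 (E2.5), E3.75 and also E4.5. Each of the 6 groups holds 3 libraries, 18 in all. They were flushed from the oviduct or uterus with M2 medium and not treated further, and the labels name neither the null allele nor the genotype of the mothers. RNA was primed with oligo(dT) and amplified, so reads lie mostly at the 3′ ends of polyadenylated transcripts. In RNA of embryos, a mix of cell types, fewer cells of a type and less RNA per cell cannot be told apart.

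The respiratory chain sits in the inner mitochondrial membrane. Complex I takes electrons from NADH and complex II from succinate, both pass them through ubiquinone to complex III, and cytochrome c carries them to complex IV, which reduces oxygen. Complexes I, III and IV pump protons, and the returning protons turn complex V, which makes ATP; a few subunits are encoded by mitochondrial DNA, complex II has none of these, and the nuclear ones are imported. Cleavage-stage mouse embryos live mainly on pyruvate and lactate, and mitochondria mature and oxygen use increases as the blastocyst forms.

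Depth, as whole reads recovered from the CPM, was lowest in Oct4 null library 1 of the E4.5 stage (364936 reads) and highest in Oct4 null library 2 of the E2.5 stage (1922432 reads). Median depth was greater in null libraries throughout: 1917754 reads against 916720 in wild type libraries in the E2.5 groups, 1375610 against 576078 reads in the E3.75 groups and 1314657 against 543033 reads in the E4.5 groups. In each group the library numbered 3 (library C of wild type E4.5) was nearly a weighted average of its 2 partners. Its reads scattered around that average with 0.944 to 1.23 times the variance of sampling alone, whereas the same check gave 1.03 to 2.71 times for the remaining libraries. SEs and p-values from all 3 libraries can therefore be too small, so results from libraries 1 and 2 alone (A and B of wild type E4.5) are given too. Nothing in the labels says that the libraries came from separate pools of embryos, so p-values measure only the spread between these libraries. Pou5f1, the targeted gene, averaged 968.3 ± 40.1 CPM in null and 1875 ± 194 CPM in wild type libraries at E2.5 (SD, n = 3), 258 ± 33.3 CPM in null and 509 ± 115 CPM in wild type libraries at E3.75, and 112 ± 26.9 CPM in null and 231 ± 45.9 CPM in wild type libraries at E4.5. All null libraries lay below all wild type libraries of their stage. In limma's moderated test its adjusted p was 0.00105 for E2.5, 8.57e-05 for E3.75 and 0.125 for E4.5, where a threshold of 0.05 was used. The deleted stretch of the gene is not named, so remaining 3′ reads do not check the genotype.

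The summed level of the subunits was higher at each later stage in both genotypes, and its mean was lower in null than in wild type embryos of the same stage. Over deposited CPM, all measured subunits together reached 26805 ± 270 CPM in null and 28478 ± 110 CPM in wild type libraries at E2.5 (SD, n = 3 each), a null to wild type ratio of 0.941 (all ratios are of means). At E3.75 they reached 38916 ± 372 CPM in null and 45834 ± 1674 CPM in wild type libraries, a ratio of 0.849. At E4.5 the sums were 46483 ± 2755 CPM in null and 52756 ± 3491 CPM in wild type libraries, a ratio of 0.881. At E2.5 and E3.75 all null sums lay below all wild type sums, and at E4.5 the groups overlapped. Sums were not tested, because a score over genes chosen as a list carries no p-value.

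The 5 complexes did not share 1 pattern. At E3.75 the null to wild type ratio of the sums was 0.851 for complex I, 0.809 for complex II, 0.854 for complex III, 0.883 for complex IV and 0.828 for complex V, and the genotypes did not overlap for any of the 5. At E2.5 the ratio of complex II was 1.16, with overlapping groups, and those of the other 4 lay between 0.891 and 0.955. At E4.5 complex IV had the lowest ratio, 0.818, with null sums of 11188.5 to 12882 CPM against 13206 to 15754 CPM in wild type libraries. Complex II had a ratio of 1.048 at that stage. Its null sums of 1576 to 1617 CPM all lay above the 1454 to 1554 CPM of wild type libraries. With TMM factors the ratio was 1.006 and the groups overlapped, at 1533 to 1574 in null and 1456 to 1620 in wild type libraries. They overlapped with DESeq2 size factors too. Complexes I and III overlapped between genotypes at E4.5, and complex V did not (ratio 0.879).

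**Figure D1:**
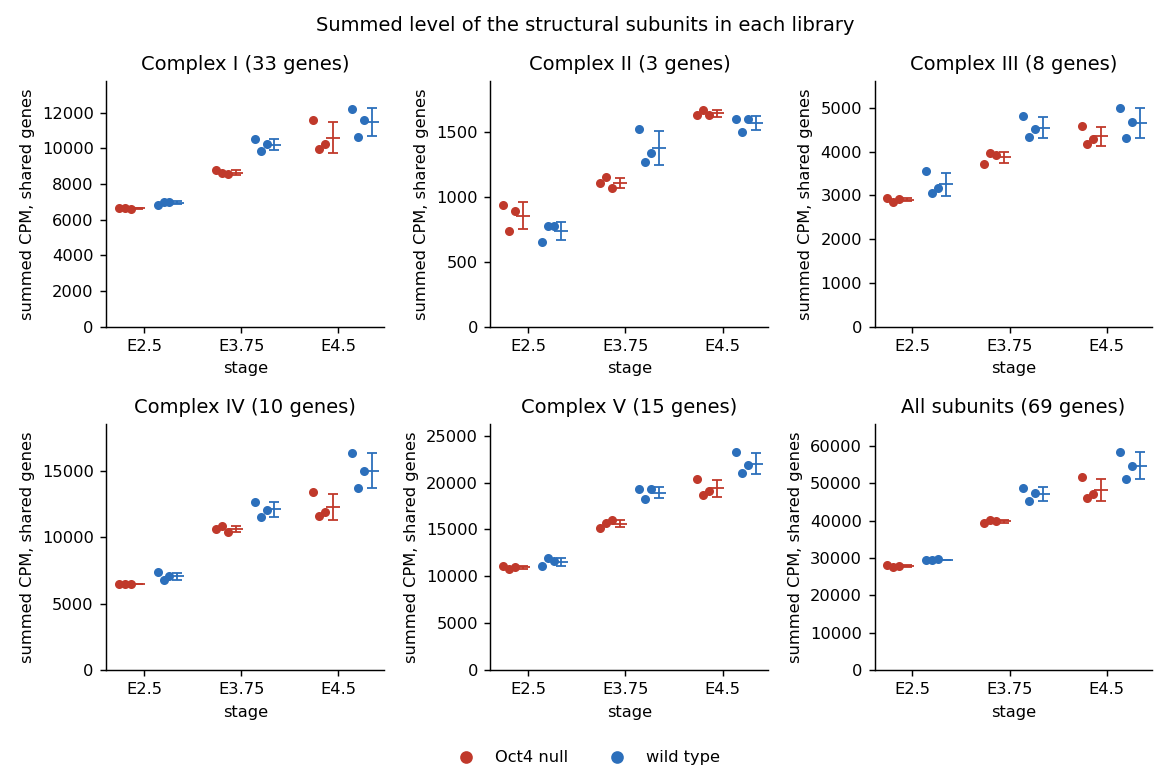
Summed CPM of the subunits of each complex in every library, over genes shared by the 3 stages, with Oct4 null in red left of wild type in blue; small dots are libraries and dashes with bars are means ± SD (n = 3). Means are higher at each later stage, the genotypes do not overlap for any complex at E3.75, and at E4.5 complex IV reaches 11612 to 13403 CPM in null and 13721 to 16352 CPM in wild type libraries.

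In wild type embryos most subunit genes were higher at E3.75 than at E2.5, and cytochrome oxidase genes in particular were higher again at E4.5. Levels for these comparisons are CPM recomputed over the 5430 genes shared by the 3 tables. Of 88 measured genes, 58 rose and 9 fell between E2.5 and E3.75, against 21.1% of all genes higher and 33.2% lower. The median difference was 0.53 on the log2(CPM + 1) scale for these genes and -0.16 for all genes. By complex, 21 of 33 genes of complex I rose and 2 fell, 3 of 3 of complex II, 7 of 8 of complex III and 10 of 10 of complex IV rose, and 10 of 15 of complex V rose and 1 fell. Assembly factors and copies went both ways, with 7 of 19 higher and 6 lower. The later libraries lay wholly above the earlier ones for 58 of the 88 genes and wholly below for 7, against 22.3% and 34.8% of all genes.

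Cox7b, a small membrane subunit of cytochrome oxidase, rose most, with 623, 530 and 608 CPM in the E3.75 wild type libraries against 178, 147 and 152 CPM at E2.5, a log2 difference of 1.88 (SE 0.13, adjusted p = 5.6e-12). The stages did not overlap for this gene. Atp5g3, a gene for subunit c of the rotor ring of ATP synthase, had 7664, 6768 and 7173 CPM at E3.75 against 3743, 3382 and 3601 CPM at E2.5, a log2 difference of 1.01 (SE 0.07, adjusted p = 1.85e-12). The succinate dehydrogenase subunits rose by 1.18 (Sdha, which oxidises succinate), 1.14 (Sdhc, a membrane anchor) and 0.58 (Sdhb, the iron-sulfur subunit) on the log2 scale. In complex I, Ndufa1 of the membrane arm rose by 1.67. In complex III the log2 differences of all 8 genes lay between 0.37 and 0.60, with the largest for Uqcrfs1, the Rieske iron-sulfur protein, (0.60), and Uqcr10, a small accessory subunit, rose by 0.57. Cox6b1, which faces the intermembrane space, rose by 1.07, and Usmg5, a small membrane subunit of ATP synthase, by 1.13.

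Genes that fell between these stages included Ndufc1 and Ndufb8, accessory membrane subunits of complex I, at -0.61 and, with overlapping groups, -0.60, and Atp5d, the delta subunit of the rotating stalk, at -0.45. Larger falls were seen among assembly factors, where Cox19 of copper delivery averaged 12.9 ± 5.38 CPM at E3.75 and 35.4 ± 11.1 CPM at E2.5 (SD, n = 3; log2 difference -1.42, adjusted p = 0.00189). Ndufaf4, an assembly factor of complex I, had a log2 difference of -1.30 (adjusted p = 0.00485). Cox14, an assembly factor of cytochrome oxidase, went the other way at 1.21 and Ndufaf6 of complex I at 1.02.

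Between E3.75 and E4.5, 27 of the 88 genes rose and 4 fell in wild type embryos, against 14% of all genes higher and 23.9% lower. The median was 0.25, against -0.13 for all genes. Complex IV had 8 of 10 genes higher, complex V 7 of 15 and complex I 10 of 33 with 2 lower, whereas none of 3 genes of complex II and none of 8 of complex III passed (at an unadjusted p under 0.05, 0 and 1). Libraries of E4.5 lay wholly above those of E3.75 for 37 genes and wholly below for 6, against 17.9% and 29% of all genes. Cox5b, a zinc-binding subunit of cytochrome oxidase, had 350, 262 and 311 CPM at E4.5 against 177, 168 and 166 CPM at E3.75, a log2 difference of 0.84 (SE 0.15, adjusted p = 6.07e-05). Cox7a2, the liver-type form of subunit 7a, rose by 0.73, Cox8a by 0.52, Atp5j, coupling factor 6 of the peripheral stalk, by 0.65, and Atp5j2, subunit f, by 0.52. Ndufc1 and Ndufb8, which fell before, rose at this step by 0.79 and 0.73. Ndufa9, at the junction of the complex I arms, had fallen to 301, 405 and 370 CPM at E4.5, against 666, 569 and 630 CPM at E3.75, a log2 difference of -0.80 (adjusted p = 1.53e-06). Ndufb10 fell by 0.39, and the assembly factors Ndufaf6 and Ndufaf3 fell by 0.99 and 0.83. Cox17, a copper chaperone, rose by 0.42 and Ndufs6b by 0.70, though reads of the copies Ndufs6b, Ndufa11b and Cox6c2 may be shared with their near-identical partners. The calls of Ndufb10, Ndufaf6 and Cox17 held in only 5, 6 and 9 of 14 alternatives.

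Scaling touched these stage comparisons. TMM factors moved the median of all genes to -0.01 at both steps, from -0.16 and -0.13, and that of the respiratory genes to 0.69 and 0.37. With TMM, 61 rose and 8 fell at the first step, against 26.7% and 27.1% of all genes; over all genes the split was 1450 higher and 1472 lower, where the library total gave 1148 and 1802. At the second step 43 rose and 2 fell with TMM, against 18.3% and 18.2% of all genes, or 996 higher and 990 lower, where the library total gave 761 and 1300. With the first 2 libraries of each group, 42 rose and 2 fell at the first step, against 13.5% and 20% of all genes, and 9 rose and 2 fell at the second, against 5.43% and 10.8%. Cell type markers moved with these steps too, and their part in the stage results was not tested. Between E2.5 and E3.75 in wild type embryos 7 of 8 trophectoderm markers rose and 1 fell (median 1.46), all 3 measured blood globin genes, markers of maternal cells, fell (median -3.24), and 3 of 6 epiblast markers rose and 2 fell. Between E3.75 and E4.5, 4 of 8 trophectoderm markers rose (Krt18, Krt8, Krt7 and Fgfr2; median 0.64), 4 of 6 epiblast markers fell and 1 rose (median -0.72), and none of the 3 globin genes passed.

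**Figure D2:**
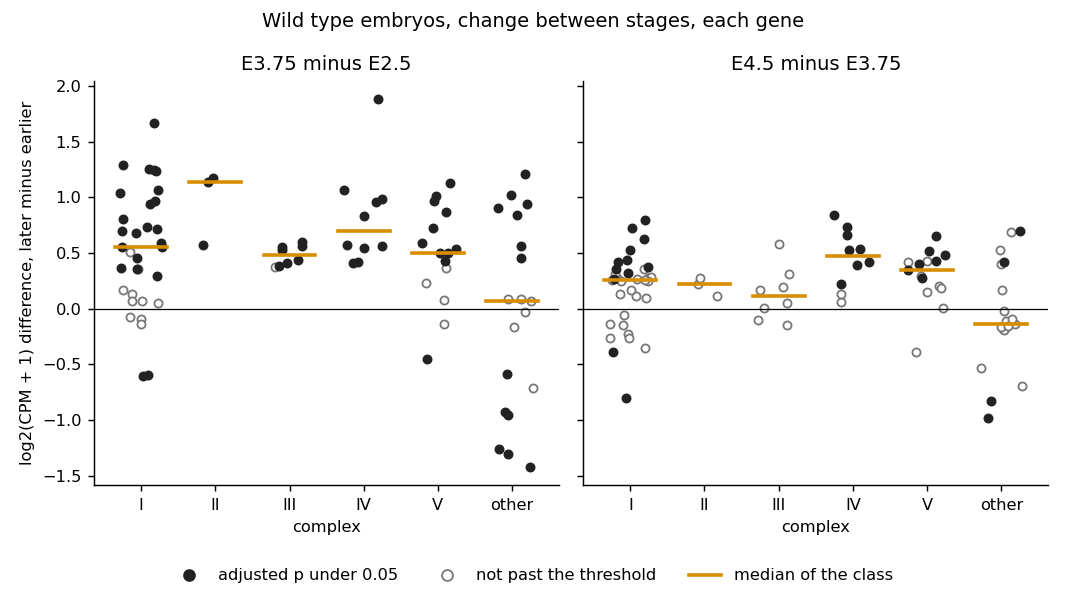
Log2(CPM + 1) difference between stages in wild type embryos, later minus earlier, for each gene by complex; "other" holds assembly factors and copies, black dots passed the threshold, open dots did not, and orange lines are class medians. At the first step all genes of complexes II, III and IV lie above 0, and at the second the median of complex IV is 0.47.

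At E2.5 none of the 89 genes passed the threshold between null and wild type embryos, against 0.184% of all genes lower and 0.409% higher in null (limma). At an unadjusted p under 0.05, 15 were lower and 7 higher, against 9.63% and 10.8% of all genes. On the recovered reads DESeq2 called 1 lower and 2 higher (1.47% and 3.02% of the 5297 genes to which it gave an adjusted p), and edgeR's quasi-likelihood test called none lower and 1 higher, Cox18 (0.706% and 1.82% of all genes). The median difference, null minus wild type on the log2(CPM + 1) scale, was -0.10, against -0.02 for all genes. Null libraries lay wholly below wild type libraries for 20 genes and wholly above for 8, against 14.1% and 13.6% of all genes. All 8 genes of complex III had estimates below 0 (median -0.25), against 51.7% of all genes, and 3 of them did not overlap between genotypes. Without wild type library 2, 11 genes passed as lower and 5 as higher, against 5.39% and 5.52% of all genes, and without wild type library 1, 3 passed as lower and 1 as higher, against 2.4% and 3.11%.

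At E3.75 genes of all 5 complexes were lower in null embryos. Of 92 measured genes, 16 passed as lower and none as higher, against 4.6% of all genes lower and 3.6% higher. All 16 were subunit genes: 6 of 35 in complex I, 1 of 3 in complex II, 3 of 8 in complex III, 2 of 10 in complex IV and 4 of 16 in complex V, and none of the 20 assembly factors and other genes. Estimates were below 0 for 60 of 72 subunit genes, with a median of -0.20, and for 11 of the 20 others, with a median of -0.08, against 54.6% of all genes and a median of -0.04. Null libraries lay wholly below wild type libraries for 37 of the 92 genes and wholly above for 2, against 15.7% and 11.4% of all genes. The falls were modest: among the 16 called genes the log2 difference ran from -0.54 (Ndufb8) to -0.22 (Atp5a1).

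The number of calls at E3.75 depended on the libraries. With the first 2 libraries of each group 1 of the 16 was called, Atp5g3, against 1.26% of all genes lower and 1.07% higher, while 58 of 72 subunit estimates stayed below 0 with a median of -0.18. Without wild type library 3, 2 were called (Atp5g3 and Cox8a), against 1.43% of all genes lower and 1.71% higher. Without Oct4 null library 1, 7 were called, against 1.56% of all genes lower and 1.76% higher, and without Oct4 null library 3, 8 were, against 2.45% and 1.87%. TMM factors left 9 of the 16 and edgeR's quasi-likelihood test 10 (3.79% of all genes lower and 4.51% higher). DESeq2 left 8, against 3.95% lower and 6.6% higher of the 2910 genes to which it gave an adjusted p, and the fit over all 18 libraries 7, against 2.14% and 1.97% of the 5430 shared genes. Each of these was lower in null. TMM also turned the split over all genes to 216 lower and 287 higher (3.25% and 4.32%), where the library total gave 306 lower and 239 higher.

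**Figure D3:**
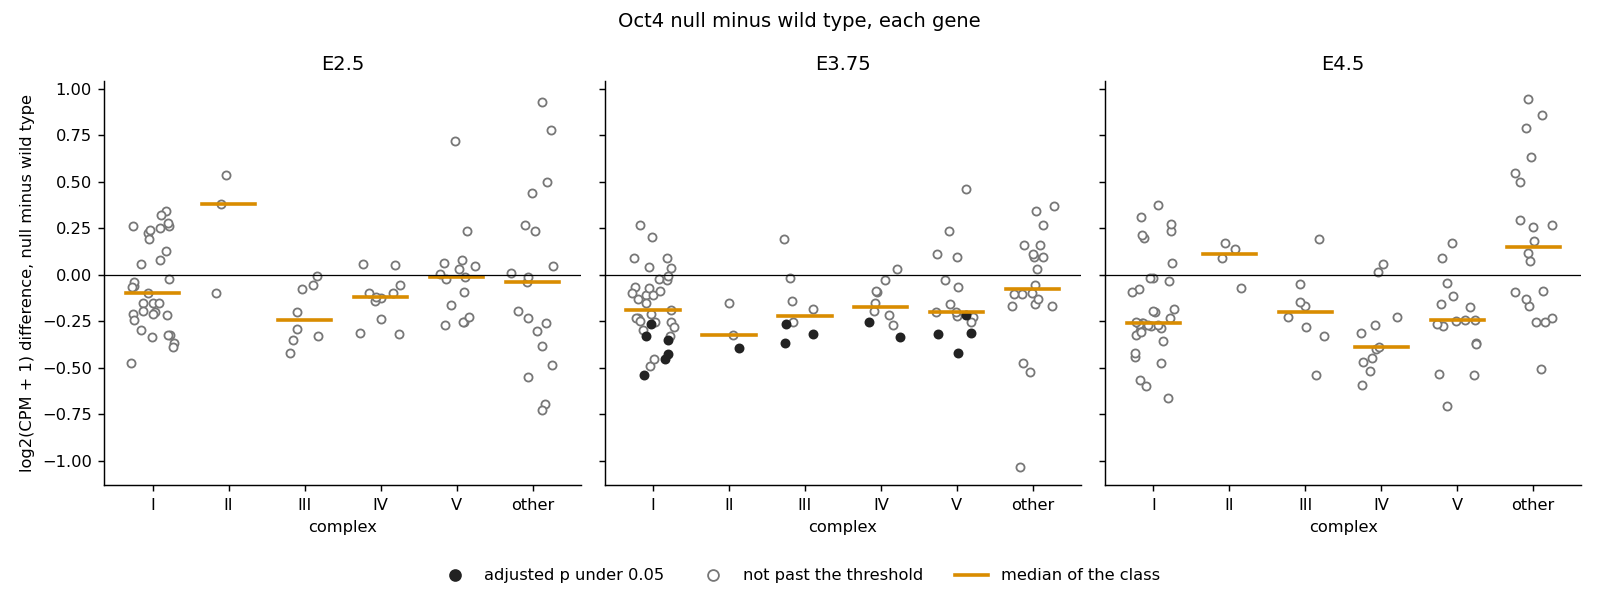
Log2(CPM + 1) difference, Oct4 null minus wild type, for each gene by complex at the 3 stages; "other" holds assembly factors and copies, black dots passed the threshold, open dots did not, and orange lines are class medians. Passing genes are seen only at E3.75, where all 16 lie below 0, and at E4.5 the median of complex IV is -0.39 without a passing gene.

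Complex I genes called at E3.75 belonged to both the electron-carrying arm and the membrane arm. Ndufs8, a core iron-sulfur subunit near the ubiquinone site, had 491, 546 and 503 CPM in null libraries, against 737, 611 and 724 CPM in wild type libraries. All null libraries were lower (log2 difference -0.42, SE 0.09, adjusted p = 0.00571), and the gene passed in 14 of 17 alternatives. Libraries 1 and 2 alone did not call it (limma, adjusted p = 0.173). At E4.5 Ndufs8 had 1030, 637 and 608 CPM in null and 523, 566 and 618 CPM in wild type libraries, with overlap (0.38, adjusted p = 0.331). Ndufv2, an iron-sulfur subunit of the NADH module, had 343, 298 and 324 CPM in null and 382, 468 and 476 CPM in wild type libraries, again without overlap (-0.45, SE 0.11, adjusted p = 0.0103). At E2.5 it had the smallest p of complex I, with 139, 157 and 161 CPM in null and 218, 198 and 219 CPM in wild type libraries (-0.48, adjusted p = 0.0769). Ndufa9 averaged 471 ± 19.8 CPM in null and 603 ± 46.2 CPM in wild type libraries (SD, n = 3; adjusted p = 0.0164), and Ndufb9, an accessory subunit of the LYR family, 996.5 ± 68.4 and 1196 ± 26.5 CPM (adjusted p = 0.0307). Ndufb8 was also called (-0.54), with overlapping groups and an adjusted p that rounds to 0.05. The calls of Ndufb9 and Ndufb8 each held in 7 of 17 alternatives, and that of Ndufa9 in 12. At E4.5 no complex I gene passed; Ndufb6, an accessory membrane subunit, had the smallest p, with 277, 231 and 238 CPM in null and 431, 332 and 370 CPM in wild type libraries (-0.60, adjusted p = 0.136).

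Succinate dehydrogenase, complex II, also belongs to the TCA cycle. Sdhb had 377, 440 and 370 CPM in null libraries at E3.75, against 496, 501 and 559 CPM in wild type libraries, with no overlap (-0.39, SE 0.10, adjusted p = 0.0135). Sdha was lower in all null libraries at E3.75 without passing (-0.33, adjusted p = 0.101), and Sdhc overlapped between genotypes (-0.15, adjusted p = 0.41). At E2.5 Sdha was above wild type in all null libraries (303, 234 and 262 against 143, 218 and 193 CPM) without passing (0.54, adjusted p = 0.105), and Sdhc had an estimate of 0.38 with overlapping groups. At E4.5 none of the 4 genes passed; Sdha had 639, 476 and 517 CPM in null and 462, 473 and 503 CPM in wild type libraries, with overlap (0.17, adjusted p = 0.51), and Sdhd, the other anchor, had 10.65 to 11.9 CPM in null and 7.37 to 17.5 CPM in wild type libraries, values near the lower limit of the table.

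In complex III, Uqcrc1, a core protein on the matrix side, had 662, 783 and 778 CPM in null libraries at E3.75, against 1078, 858 and 936 CPM in wild type libraries. The groups did not overlap (-0.37, SE 0.09, adjusted p = 0.0136). Uqcr10 averaged 525 ± 18.9 CPM in null and 659 ± 91.2 CPM in wild type libraries (adjusted p = 0.0415), and Uqcrq, another small subunit, 586 ± 27.0 and 704 ± 16.2 CPM (SD, n = 3 each; adjusted p = 0.0484). These 2 calls held in only 4 and 3 of 17 alternatives. At E2.5 Uqcr10 had the smallest p of the complex (-0.33, adjusted p = 0.147), and at E4.5 it was Uqcrh, the hinge protein, with 444, 389 and 398 CPM in null and 565, 487 and 495 CPM in wild type libraries (-0.33, adjusted p = 0.204). Cyc1, the cytochrome c1 of complex III, falls outside the name rule and was lower in null at E3.75 (453 ± 17.1 against 572 ± 36.0 CPM, log2 difference -0.34, adjusted p = 0.0224).

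In complex IV, Cox8a, the ubiquitous form of subunit 8, had 874, 917 and 884 CPM in null libraries at E3.75, against 1211, 1075 and 1094 CPM in wild type libraries (-0.34, SE 0.08, adjusted p = 0.00791). No null library reached the wild type range, and the call held with any 1 library left out. It was lost with libraries 1 and 2 alone (limma, adjusted p = 0.135) and in the fit over all 18 libraries. Cox4i1, the ubiquitous form of subunit 4, had 3079, 3010 and 2891 CPM in null and 3791, 3321 and 3614 CPM in wild type libraries (-0.26, SE 0.06, adjusted p = 0.0108), also without overlap. Cox6a1, the liver-type form of subunit 6a, was lower in all null libraries without passing (-0.20, adjusted p = 0.114), and Cox7a2, Cox6b1 and Ndufa4 did not pass. Ndufa4, named for complex I and later found in cytochrome oxidase, overlapped between genotypes at all 3 stages (-0.12, -0.09 and -0.31).

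At E4.5 no gene of the 94 passed in limma, nor did any of the 6545 genes tested (0% lower and 0% higher). At an unadjusted p under 0.05, 27 were lower and 6 higher, against 6.49% and 8.56% of all genes. The median of the 94 genes was -0.21, against 0.06 for all genes, and null libraries lay wholly below wild type for 28 and wholly above for 10, against 9.99% and 12.2% of all genes. Cytochrome oxidase had the lowest class median at -0.39, with 8 of 11 genes at an unadjusted p under 0.05 and all 8 lower. Cox6b1 had 860.4, 761 and 799 CPM in null libraries, against 1245, 1187 and 1219 CPM in wild type libraries, a wide gap between groups (-0.59, SE 0.09, adjusted p = 0.0672). Cox7a2 had 471, 418 and 458 CPM in null and 751, 570.0 and 621 CPM in wild type libraries (-0.52, adjusted p = 0.137), without overlap. DESeq2 called 8 genes at this stage, against 3.26% lower and 1.03% higher of the 2611 genes to which it gave an adjusted p. The fit over all 18 libraries called 8 (1.9% and 2.17% of the 5430 shared genes), edgeR's quasi-likelihood test 4 (0.626% and 0.0153% of all genes) and limma without Oct4 null library 1 called 7 (1.3% and 0.535%), and each respiratory gene called was lower in null. That library is the shallowest of the series and had 732 CPM of the blood globin gene Hbb-bs, against 102 and 266 CPM in the other null libraries and 93.9 to 192 CPM in wild type libraries; its part in the result was not tested. With the first 2 libraries no gene passed.

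In complex V, Atp5g3 was the most stable difference. It had 5037, 5231 and 5386 CPM in null libraries at E3.75, against 7422, 6582 and 6959 CPM in wild type libraries (-0.42, SE 0.05, adjusted p = 3.16e-05). The gap between the groups was wider than the range within either, and the gene passed in 17 of 17 alternatives, with adjusted p from 1.35e-06 to 0.00138. At E2.5 it had 2923, 2710 and 2938 CPM in null and 3600, 3268 and 3471 CPM in wild type libraries (-0.27, adjusted p = 0.0607). At E4.5 the values were 6442, 5878 and 6132 CPM in null and 7375, 6592 and 6867 CPM in wild type libraries (-0.18, adjusted p = 0.247). All null libraries were thus below all wild type libraries at each of the 3 stages. Atp5g1, which encodes the same mature subunit c, had estimates of 0.72 at E2.5 and 0.46 at E3.75 without passing (adjusted p = 0.127 and 0.226), at 26 to 58 CPM over both genotypes at E2.5. At E4.5 Atp5g1 had 19.2, 23.6 and 32.0 CPM in null and 42.4, 11.6 and 36.8 CPM in wild type libraries, with overlap (-0.11, adjusted p = 0.918). Atp5g2 was not analysed here.

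The remaining ATP synthase calls at E3.75 were in the catalytic head, the stalk and the membrane part. Atp5c1, the gamma subunit of the rotating stalk, had 980.3, 1010 and 1018 CPM in null and 1258, 1189 and 1297 CPM in wild type libraries (-0.31, SE 0.07, adjusted p = 0.00869), with no overlap. Atp5a1, the alpha subunit of the head, averaged 3053 ± 221 CPM in null and 3541 ± 101 CPM in wild type libraries (adjusted p = 0.0306), and Atp5j2 342 ± 33.0 and 425 ± 3.37 CPM (SD, n = 3 each; adjusted p = 0.0495). The Atp5a1 call held in 7 and the Atp5j2 call in 2 of 17 alternatives. At E4.5 Atp5j had the smallest p of the complex, with 386, 305 and 308 CPM in null and 514, 456 and 470.4 CPM in wild type libraries (-0.53, adjusted p = 0.137). Atpif1, which encodes the inhibitor of ATP synthase and is not counted among the 94, averaged 175 ± 17.5 CPM in null and 176 ± 26.3 CPM in wild type libraries at E3.75 (SD, n = 3; interval of the log2 difference at 95% confidence -0.28 to 0.28) and an estimate of -0.45 at E4.5 (adjusted p = 0.217).

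**Figure D4:**
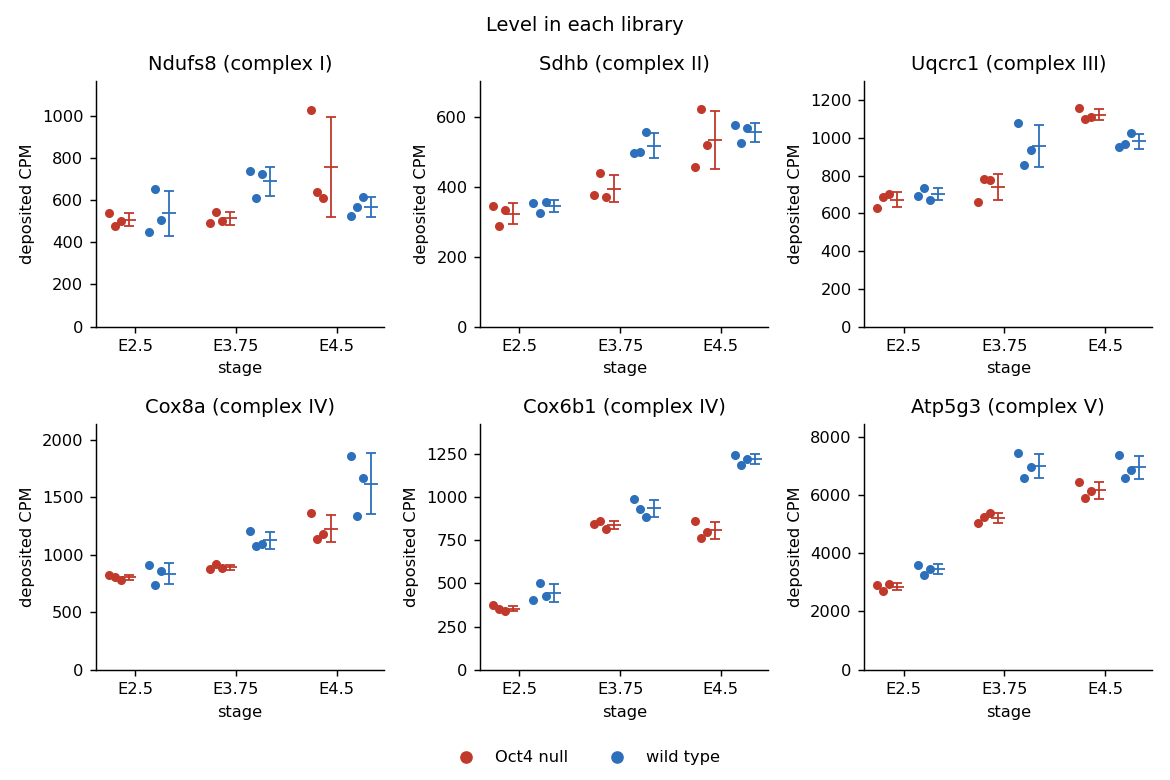
Deposited CPM of 6 genes in each library by stage, Oct4 null in red left of wild type in blue, with means ± SD (n = 3); tables of different stages were scaled separately. Null libraries of Atp5g3 lie below wild type libraries at every stage, those of Cox6b1 differ most at E4.5, and those of Ndufs8, Sdhb, Uqcrc1 and Cox8a lie below wild type at E3.75. At E4.5 the Ndufs8 mean is higher in null, 758 against 569 CPM with overlap, and Uqcrc1 lies above wild type, at 1122 ± 30.1 CPM in null and 982 ± 39.1 CPM in wild type libraries.

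Among assembly factors and other genes none passed between genotypes at any stage. Cox18, a membrane insertase for cytochrome oxidase, had the smallest p at E2.5, with 94.0, 82.2 and 96.5 CPM in null and 48.0, 49.5 and 60.8 CPM in wild type libraries (0.78, adjusted p = 0.0605), and it passed with TMM factors, in edgeR's and DESeq2's tests and in the fit over all 18 libraries. Ndufaf3, an assembly factor of complex I, was above wild type in all null libraries at E4.5 (90.4, 74.5 and 62.5 against 46.0, 34.9 and 49.6 CPM; 0.79, adjusted p = 0.169). Ndufaf1 had the smallest p at E3.75 and was lower in all null libraries without passing (-1.03, adjusted p = 0.0705). Cox7a2l, which joins complexes III and IV, had estimates of -0.19, -0.06 and 0.08 at the 3 stages and did not pass.

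Whether the null effect itself changed with stage was tested over all 18 libraries. Between E2.5 and E3.75 it differed for Sdha and Ndufaf1, both more negative at E3.75, against 0.645% of all genes more negative and 0.387% more positive. For Sdha the difference of effects was -0.87 (SE 0.21, adjusted p = 0.0463), as null libraries were above wild type at E2.5 and below at E3.75. For Ndufaf1, an assembly factor of complex I, it was -1.97 (SE 0.48, adjusted p = 0.0463). Its CPM over shared genes were 27.5, 29.7 and 31.4 in null and 13.6, 15.5 and 16.0 in wild type libraries at E2.5, and 7.11, 17.2 and 19.99 in null and 36.9, 24.5 and 26.8 in wild type libraries at E3.75. At E4.5 its groups overlapped. These are low levels for Ndufaf1. Both genes lost the call in 10 of 12 fits that left out 1 library, keeping it without wild type library 2 of E2.5 or of E3.75, and with libraries 1 and 2 alone (adjusted p = 0.879 for both). Between E3.75 and E4.5 no gene of the 88 passed, against 0.0552% of all genes more negative and 0.0368% more positive; at an unadjusted p under 0.05 there were 8 more negative and 13 more positive, against 4.64% and 9.65% of all genes, and edgeR's quasi-likelihood test called none (0.11% and 0.0552% of all genes). The smallest adjusted p was that of Uqcrc1 (difference 0.57, SE 0.13, adjusted p = 0.0655), whose null libraries lay below wild type at E3.75 and above it at E4.5 without passing there (0.19, adjusted p = 0.296). The E3.75 calls were therefore not shown to be particular to that stage.

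**Figure D5:**
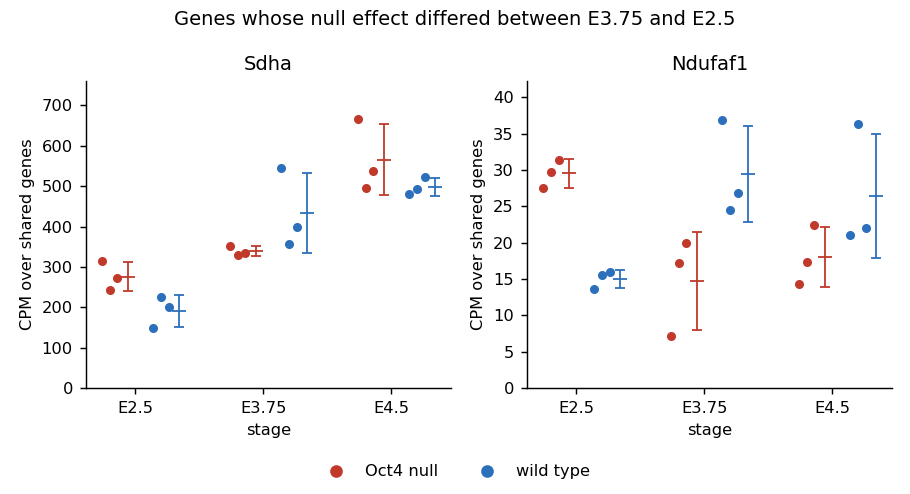
CPM over shared genes of Sdha and Ndufaf1 in each library by stage, Oct4 null in red left of wild type in blue, with means ± SD (n = 3). For both genes null libraries lie above wild type libraries at E2.5 and below them at E3.75.

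Related genes outside the name rule were followed as lists. Of all genes, 4.6% were lower and 3.6% higher in null at E3.75. At E3.75, 3 of 7 genes for ATP and phosphate exchange were lower in null: the adenine nucleotide carriers Slc25a5 (-0.30) and Slc25a4 (-0.30) and the outer membrane channel Vdac2 (-0.35), with a list median of -0.30. None of 4 genes of electron input and none of 10 of ubiquinone synthesis passed (medians 0.02 and -0.02). Of 23 assembly factors with other names, 1 passed, Tmem70, which assists ATP synthase assembly and was higher in null (80.2 ± 10.6 against 51.3 ± 9.03 CPM, SD, n = 3; 0.64, adjusted p = 0.0392). Of 10 regulators of nuclear respiratory genes, among them Nrf1, Gabpa, Yy1 and Tfam, 1 passed, Esrrb, lower at -0.62 (adjusted p = 0.0443); Esrrb is also a pluripotency gene. At E2.5 and E4.5 no gene of these lists passed.

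Cell type markers moved with genotype at E3.75, and their part in the respiratory results was not tested. At E3.75, of 7 measured epiblast markers 5 were lower, the targeted gene Pou5f1 among them, and Nanog was higher. Their sum was 1348 to 1498 CPM in null and 1502 to 1896 CPM in wild type libraries. It includes Pou5f1, with 221 to 286 CPM in null and 380 to 600 CPM in wild type libraries, so it does not measure the other markers alone. Of 7 primitive endoderm markers 3 were lower (Pdgfra, Sox17 and Lama1) and 2 higher (Col4a1 and Dab2), with a median log2 difference of -1.06. Their sums were 1317 to 1462 CPM in null and 1071 to 1132 CPM in wild type libraries. The largest part of these sums is Dab2, with 925 to 1018 CPM in null and 589 to 673 CPM in wild type libraries. None of 9 trophectoderm markers passed (6237 to 7141 CPM in null, 7030.0 to 8263 CPM in wild type libraries). Of 3 blood globin genes, the measured markers of maternal cells, 2 were higher, with sums of 176 to 474 CPM in null and 115 to 177 CPM in wild type libraries. Of 7 listed oocyte and cleavage markers only Khdc3 and Tcl1 were measured, and both were lower, with sums of 1763 to 1910 CPM in null and 2321 to 2540 CPM in wild type libraries; Khdc3 was itself higher at E3.75 than at E2.5 in wild type embryos (log2 difference 1.99). At E2.5, of 6 epiblast markers Pou5f1 alone passed, lower, and their sums were 1508 to 1634 CPM in null and 2350 to 2710 CPM in wild type libraries. Most of the wild type sum is Pou5f1 itself, the targeted gene, with 931 to 1011 CPM in null and 1723 to 2093 CPM in wild type libraries. The gap between these sums therefore does not show a loss of the other epiblast markers. None of 8 trophectoderm and 3 primitive endoderm markers passed at E2.5, with medians above 0 (0.42 and 0.40). Trophectoderm sums overlapped at E2.5 (2840 to 3195 CPM in null, 2556 to 2988 CPM in wild type libraries). Primitive endoderm sums did too (942.8 to 1084 CPM in null, 862.9 to 997 CPM in wild type libraries). At E4.5 no marker passed between genotypes. Epiblast sums were then 869 to 1118 CPM in null and 1445 to 1659 CPM in wild type libraries, without overlap (median log2 difference -0.59), primitive endoderm sums overlapped (1055 to 1200 CPM in null, 1143 to 1190 CPM in wild type libraries; median -0.63), and so did trophectoderm sums (12230 to 13330 CPM in null, 13100 to 14190 CPM in wild type libraries). The epiblast sums at E4.5 also include Pou5f1, with 95.1 to 142.5 CPM in null and 183 to 274 CPM in wild type libraries. No measured marker was at 0 in any library. Listed markers without values at a stage could not be checked, because genes low in most libraries are absent. Sox2 and Sox7 were not analysed here at any stage.

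Promoter sequences are shown for 4 genes described above and for Ndufs4, to print the letters that lie upstream of them. They were taken from RefSeq (GRCm38.p6); 76 of the 94 genes had a window of 250 bases before to 50 after an annotated start. On both strands, a core motif of NRF1 (GCGCANGCG), a factor known for activating nuclear respiratory genes, was found in 20 of 76 promoters (26.3%), against 17.5% of genes in the expression tables and 7.03% of all genes of the promoter table. The motif of GABPA (CCGGAAGT) was in 8 (10.5%, against 11.4% and 4.31%), the core motif of YY1 (AAGATGGCG) in 9 (11.8%, against 4.63% and 1.64%) and the octamer of OCT factors (ATGCAAAT) in 1 (1.32%, against 1.42% and 1.97%). NRF1 matches on opposite strands can overlap one another by all but 1 base, as in Cox6a1, and no match of 1 motif overlapped a match of another. Shown are the 200 bases before the start, all from the minus strand, with motif letters in capitals: Sdha, Cox6a1 and Atp5c1 with NRF1, Atp5j with YY1, and Ndufs4, an accessory subunit of complex I and the gene with the octamer.

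Sdha, chr13:74350241-74350440: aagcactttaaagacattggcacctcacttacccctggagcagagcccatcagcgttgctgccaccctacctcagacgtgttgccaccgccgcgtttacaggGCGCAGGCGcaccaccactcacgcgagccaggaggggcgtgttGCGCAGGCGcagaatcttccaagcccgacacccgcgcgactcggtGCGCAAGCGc
Cox6a1, chr5:115348959-115349158: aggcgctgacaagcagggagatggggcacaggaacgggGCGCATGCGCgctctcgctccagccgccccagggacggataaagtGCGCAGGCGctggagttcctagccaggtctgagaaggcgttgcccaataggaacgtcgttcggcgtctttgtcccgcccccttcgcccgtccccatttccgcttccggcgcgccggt
Atp5c1, chr2:10080433-10080632: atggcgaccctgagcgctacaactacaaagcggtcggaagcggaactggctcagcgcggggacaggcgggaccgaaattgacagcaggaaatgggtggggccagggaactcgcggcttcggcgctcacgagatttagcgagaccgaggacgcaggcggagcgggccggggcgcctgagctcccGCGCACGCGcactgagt
Atp5j, chr16:84834977-84835176: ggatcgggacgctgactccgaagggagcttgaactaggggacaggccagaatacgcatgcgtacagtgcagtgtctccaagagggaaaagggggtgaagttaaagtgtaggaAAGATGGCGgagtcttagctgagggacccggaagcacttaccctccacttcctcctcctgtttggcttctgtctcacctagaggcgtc
Ndufs4, chr13:114388095-114388294: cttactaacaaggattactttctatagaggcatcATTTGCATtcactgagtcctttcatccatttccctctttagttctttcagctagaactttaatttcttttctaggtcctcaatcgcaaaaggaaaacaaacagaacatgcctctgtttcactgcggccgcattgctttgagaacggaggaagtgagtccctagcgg

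The NRF1 letters of Sdha began 98, 55 and 10 bases before the start, and those of Cox6a1 162, 161 and 117 bases before it. The match of Atp5c1 began 17 bases and that of Atp5j 88 bases before the start; both genes have another annotated start, whose window held no match. In Ndufs4 the octamer lies on the opposite strand, 166 bases before the start, and a YY1 match lies after it. Ndufs4 had 301 ± 21.5 CPM in null and 379 ± 37.0 CPM in wild type libraries at E3.75 (SD, n = 3) and did not pass there (-0.33, adjusted p = 0.0535) or at the other stages. Of the 16 genes called at E3.75, Atp5g3 and Uqcrc1 had NRF1 letters after the start and Atp5c1 before it, Cox8a had GABPA letters, and Ndufa9 and Atp5j2 had YY1 letters; windows of the other called genes, where there was one, held none of the 4 motifs. A match describes letters in this window and is not a measured binding site, and a window without a match says nothing of the factor.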

How the data were processed

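CD1 mouse embryos, Oct4 null or wild type, were profiled by oligo(dT)-primed, amplified RNA sequencing. The authors deposited 1 table of CPM (reads scaled to a fixed library total) for each stage. Per the submitters' processing notes edgeR and mm9 were used; which aligner and counter were used is not given in the sources. Each table sums to 1000000 CPM per library over its own genes (7082, 6648 and 6545), with genes low in most libraries absent. All 121650 values were whole multiples of 1 read within 0.01 reads.

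Genes were tested within a stage on log2(CPM + 1) with limma 3.58.1 (trend), Benjamini-Hochberg adjustment over all genes of the table and a threshold of 0.05. Stage comparisons and differences of the null effect used 1 limma fit over 18 libraries, on CPM recomputed over 5430 shared genes. Fold changes on this scale understate those of low genes. Alternatives were edgeR 4.0.16 and DESeq2 1.42.0 on recovered reads, other scalings (TMM; size factors of DESeq2), a pseudocount of 0.1 or 5, only genes with a mean of at least 10 CPM, reads thinned to equal depth, 1 library left out and a replicate block. The fits were tested on simulated data. R 4.3.3 was used; no column was left unused.

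Emc8, Dmac2 and Atpif1 were counted apart from the 94 genes. The genes and related lists were chosen with earlier results of these data known. Named are, per comparison and complex, up to 4 passing genes by smallest p or, where none passed, the gene with the smallest p; per wild type stage step, up to 2 with the greatest change each way; the Sdh genes, paralogue sets, Atpif1 and Pou5f1. Ndufb8 at E3.75, Uqcrc1 at E4.5 and Ndufs4 fall outside this rule and were chosen after their values were seen. Some results that meet the rule are not reported here. Same-numbered null and wild type libraries did not deviate together (r from -0.03 to 0.12), so libraries were not paired. Wild type columns of E4.5 bear no number, and the letters A, B and C stand for them.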

Additional observations from a re-analysis of the deposited data

Results flagged for a closer look

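Sdha, the succinate-oxidising subunit of complex II, stood out because its null effect differed between E3.75 and E2.5 in a test of that difference over 18 libraries (-0.874 on the log2 scale, adjusted p = 0.0463). Ndufaf1, an assembly factor of complex I, stood out in the same test (-1.97, adjusted p = 0.0463). In both, null libraries lay above wild type libraries at E2.5 and below them at E3.75. Each call held in only 2 of 12 fits that left out 1 library. With libraries 1 and 2 alone neither gene passed (limma, adjusted p = 0.879 for both).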

How the results depend on the processing

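Of the values of single named genes under the alternatives, 2114 kept their side of the threshold, 55 gained a call and 152 lost one; 57 changed sign, none of which passed with or without the alternative. With libraries 1 and 2 alone the complex V median at E2.5 was 0.02 in place of -0.01, and that of assembly factors and copies at the first wild type step -0.04 in place of 0.07. The counts moved as follows, and the cause was not tested. At E2.5, where the count was 0, TMM factors, DESeq2 size factors and edgeR each gave 1 higher, and DESeq2 1 lower and 2 higher. The fit over 18 libraries gave 2 lower and 2 higher. Of all genes, TMM factors called 0.325% lower and 1.07% higher, and DESeq2 size factors 0.311% and 1%. The fit over 18 libraries called 1.23% and 1.27% of the 5430 shared genes. Leaving out 1 library gave 0 to 11 lower and 0 to 5 higher. At E3.75, where 16 were lower, libraries 1 and 2 alone gave 1, and TMM factors and DESeq2 size factors 9 each. DESeq2 size factors called 3.29% of all genes lower and 4.24% higher. The test of edgeR gave 10, DESeq2 8 and the fit over 18 libraries 7. Leaving out 1 library gave 2 to 19, against 1.43% to 5.2% of all genes lower and 1.71% to 4.6% higher. At E4.5, where the count was 0, TMM factors and reads thinned to equal depth gave 1 lower each, edgeR 4, and DESeq2 and the fit over 18 libraries 8 each; leaving out 1 library gave 0 to 7. In wild type embryos at E3.75 against E2.5, libraries 1 and 2 alone gave 2 lower in place of 9. At E4.5 against E3.75, 27 were higher and 4 lower. Libraries 1 and 2 alone gave 9 higher and 2 lower, against 5.43% and 10.8% of all genes. TMM factors gave 43 and 2, against 18.3% and 18.2%. DESeq2 size factors gave 45 and 2 and edgeR 44 and 2, for which no share of all genes is given here. Leaving out 1 library gave 2 to 6 lower. For the difference of the null effect between E2.5 and E3.75, where 2 genes passed, libraries 1 and 2 alone gave 0 and leaving out 1 library 0 to 3; between E3.75 and E4.5, where none passed, leaving out 1 library gave 0 to 2 higher. The complex II ratio at E4.5 was 1.006 with TMM factors, and the ratio of all subunits at E2.5 was 0.9532 with TMM and 0.9516 with DESeq2 size factors. With the replicate block, 0 genes passed at E2.5, against 0.0988% of all genes lower and 0.325% higher. At E3.75 the block gave 12 lower and 0 higher, against 3.61% and 2.98% of all genes. The libraries share only a number. At E4.5 no replicate block could be fitted, because the wild type columns carry no number. Depth limits the low genes most, such as Sdhd, Cox19 and Ndufaf1.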
